A study of Saccharomyces cerevisiae with 76 samples.

Results

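The cytosolic ribosomal protein (RP) genes were examined for Abf1 binding in budding yeast, Saccharomyces cerevisiae. The members were all 137 genes whose symbol is RPL or RPS followed by a number, together with RPP0, RPP1A, RPP1B, RPP2A and RPP2B, out of 6002 annotated protein-coding genes. Binding was read from a single list of 948 summits, the positions of highest signal within called peaks. A summit was assigned to a gene when it lay inside the open reading frame (ORF, from start to stop codon, introns included) or at most 1000 bp upstream of the start codon, which is called the promoter here. In all, 51 distinct summits fell at RP genes and gave 53 pairs of a gene and a summit.

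The list came from ChIP-seq of Abf1 before its depletion (t = 0). The strain was BY4742 with tor1-1 and an FPR1 deletion, with Abf1 fused to FRB, yEGFP and 3 V5 epitopes and the RP gene RPL13A fused to FKBP12. RPL13A therefore encodes the anchor that carries Abf1 out of the nucleus once rapamycin is given. The 3 t = 0 cultures had received DMSO in place of rapamycin for 90 min. The series also holds samples taken during the depletion and samples of the untagged WT parent strain, which were not analysed here. Peaks were called on the 3 immunoprecipitated (IP) samples together against their 3 inputs, so no summit has a spread between replicates. Each value is a fold enrichment, the pooled IP fragment count at the summit over the input-derived background with 1 added to each. The intervals given are 95% Poisson intervals of the IP fragment count and cover counting error only. The background was held fixed in them, so counting error here is that of the IP count and leaves out that of the input. The fragments recovered at RP summits ranged from 271 to 7984, where counting error is 6.07% and 1.12% of the count. Because the list holds no value below 2, a gene without a summit is a gene without a listed value, not a gene shown to be free of Abf1.

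Ribosomal proteins are made in matched amounts, and many of them in yeast are encoded by duplicated genes. Most RP promoters are known for binding Rap1, which recruits the activators Fhl1, Ifh1 and Sfp1 under the control of TOR signalling, and a smaller group is known to use Abf1. Abf1 and Rap1 are both general regulatory factors, abundant DNA-binding proteins that keep promoters free of nucleosomes. Abf1 recognises a bipartite motif in which conserved bases flank a spacer of free sequence. ChIP can also give weak signal over highly transcribed genes, and RP genes are among the most transcribed genes of yeast.

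The best Abf1 motif is shown first for the highest promoter summits and, separately, the highest ORF summits that had one. The summits are grouped below by whether these letters are present. Matches were scored with a matrix of 15 positions, and a match reached at least 85% of the score range within 100 bp of the summit. Capitals mark the bases at −8, from −6 to −2 and from +4 to +6 counted from the middle of the motif, and coordinates are those of sacCer3.
RPS28B promoter, chrXII:672946-672966, minus strand: cgTgATCATtttgtACGaaat
RPS22B promoter, chrXII:855701-855721, minus strand: gtCcGTCATttttgACGgtaa
RPL43B promoter, chrX:608109-608129, minus strand: atTtATCATtatgcACGacaa
RPS4A promoter, chrX:703722-703742, minus strand: tgCtGTCGTtcggcACGagat
RPL4A promoter, chrII:299980-300000, plus strand: taAtATCACgtcacACGacgc
RPP1B promoter, chrIV:228980-229000, plus strand: aaTgATCACtatatACGtcaa
RPS28A promoter, chrXV:649155-649175, plus strand: cgTgGTCACtctagACGgccg
RPS2 ORF, chrVII:277918-277938, minus strand: taGaGTCACcaacaACGacaa
RPS23A ORF, chrVII:727546-727566, minus strand: aaCcATCGTttggaACGaaag
RPS23B ORF, chrXVI:795583-795603, minus strand: aaCcATCGTttggaACGaaag

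A second set of letters recurred at RP summits, the Rap1 letters ACCCNNACA. They are shown for the summits that lacked an Abf1 motif and whose values were among the highest of their kind or whose letters lay closest to the summit, with the fixed letters in capitals.
RPL35B promoter, chrIV:217413-217437, plus strand: gattcagcACCCaaACAtttgaatt
RPL7A promoter, chrVII:366231-366255, minus strand: atataaacACCCacACAtatctata
RPP1B promoter, chrIV:229624-229648, plus strand: tcctttaaACCCatACAtatcttac
RPS17B promoter, chrIV:1355833-1355857, minus strand: aaaattacACCCatACAtttatagt
RPL42B promoter, chrVIII:383095-383119, minus strand: tccgatacACCCatACAtcatgaaa
RPS0A promoter, chrVII:920084-920108, plus strand: attaaaaaACCCagACAtaaagaaa

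A minority of RP genes carried a summit, with a promoter share near that of all protein-coding genes and an ORF share above it. A promoter summit was found at 29 RP genes (21.2%), and 17.8% of all protein-coding genes had one. An ORF summit was found at 17 RP genes (12.4%), against 2.07% of all protein-coding genes. Both kinds were present at 5 genes (RPS2, RPL3, RPS23B and RPL31B among them), so 41 RP genes (29.9%) had any summit and 96 had none. The share of all protein-coding genes with a summit of either kind was not computed. Since shared divergent promoters count once, the promoter summits numbered 30 and the ORF summits 21.

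Promoter and ORF summits differed in their motifs. An Abf1 motif lay within 100 bp of 20 of the 30 RP promoter summits (66.7%), while 73% of promoter summits of any gene had one. At the ORFs, 5 of 21 RP summits (23.8%) had a motif, against 65% of ORF summits of any gene. The RP count was 12 at a threshold of 80% of the score range and 3 at 90% or with the exact consensus. For scale, 10.4% of positions taken every 1000 bp along the genome had a match in the same window.

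RP promoter summits were mostly low. Their median fold enrichment was 2.74, and 6 of 30 (20%) reached 4, against 48.8% of promoter summits of any gene. All 6 had an Abf1 motif. The median was 3.09 for RP promoter summits with a motif (range 2.04 to 56.4, n = 20) and 2.53 for those without (range 2.03 to 3.25, n = 10).

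**Figure D1:**
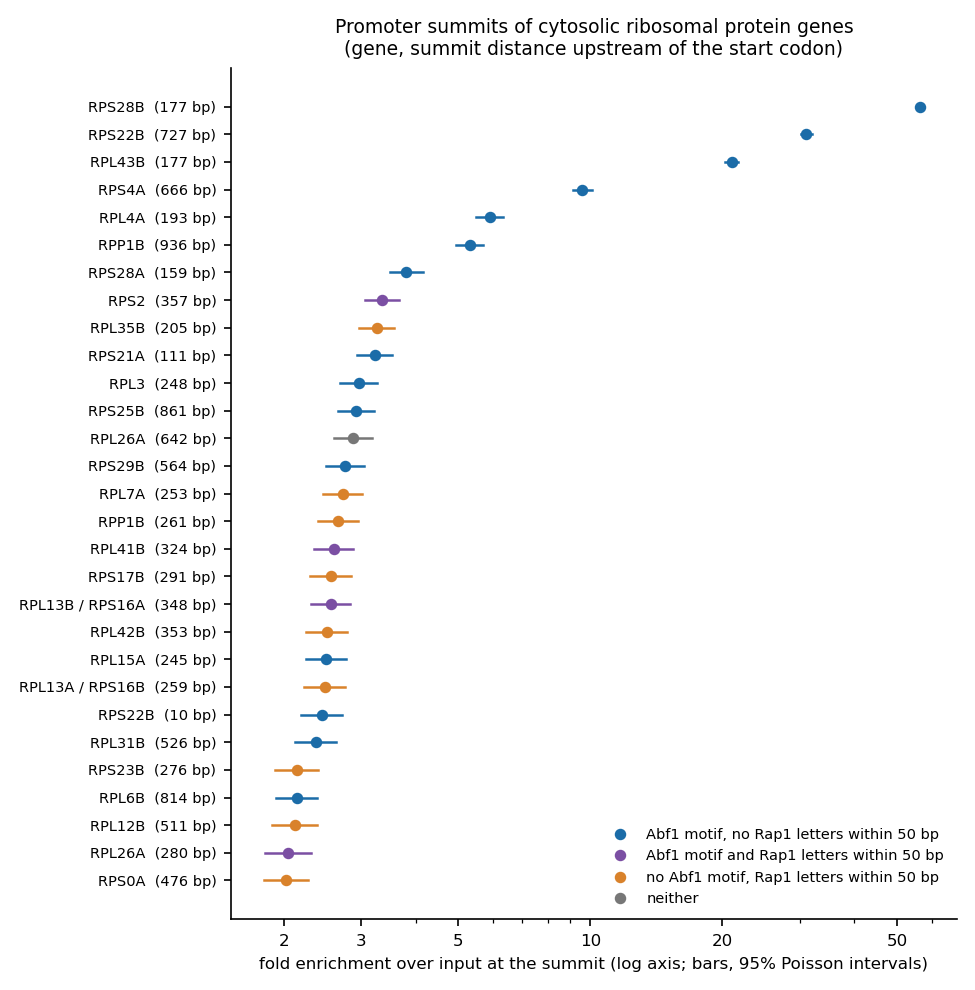
Fold enrichment over input (log axis) of 29 of the 30 promoter summits of RP genes, each with its gene and its distance from the start codon. Points are values of the pooled list, bars are 95% Poisson intervals, and colours give whether an Abf1 motif and Rap1 letters lay near the summit. RPS28B, RPS22B and RPL43B stand above 20, and every summit with Rap1 letters within 50 bp lies below 4.

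RPS28B, which encodes a small subunit protein near the mRNA exit channel, had the highest RP summit at a fold enrichment of 56.4 (interval 55.1 to 57.6, 7984 fragments). It ranked 6 of the 948 summits in the list. The summit lay 177 bp upstream of the start codon and 2 bp from the motif. It lay within 1000 bp upstream of no other protein-coding gene.

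RPS22B, another small subunit gene, had a summit of 31.1 (30.2 to 32.1) that lay 727 bp upstream of the start codon and 4 bp from its motif. The summit fell between RPS22B and the end of the neighbouring ORF YLR365W, and its nearest letters of the factor Tbf1, AACCCTAA, were 30 bp away. A second RPS22B summit of 2.44 (2.19 to 2.71) lay 10 bp before the start codon, with a lower scoring motif that overlapped the start codon.

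RPL43B, a large subunit gene, had a summit of 21.0 (20.3 to 21.7), also 177 bp upstream. Its motif scored 0.99 on a scale from 0 to 1, the highest of any RP promoter summit. The intervals of RPS28B, RPS22B and RPL43B did not overlap, so the order of these 3 was larger than counting error.

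RPS4A had a summit of 9.58 (9.11 to 10.1) at 666 bp upstream, with overlapping motif matches on both strands. That summit also lay 151 bp upstream of YJR146W, the nearer start codon. RPL4A, whose product lines the peptide exit tunnel, had a summit of 5.89 (5.48 to 6.33) at 193 bp upstream. RPP1B, a protein of the stalk that recruits elongation factors, had one of 5.30 (4.93 to 5.70) at 936 bp upstream. The mitochondrial ATPase regulator STF1 started 201 bp from that RPP1B summit. The intervals of RPL4A and RPP1B overlapped.

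Fold enrichments of the other 14 motif summits lay between 2.04 and 3.81. The highest was at RPS28A, the paralog of RPS28B, at 3.81 (3.49 to 4.15) and 159 bp upstream, where the start codon of GLN4 was 137 bp away. RPS2, a protein of the mRNA entry channel, had one of 3.35 (3.06 to 3.66) at 357 bp. RPS21A had 3.22 (2.93 to 3.54) at 111 bp.

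RPL3, whose product reaches towards the peptidyl transferase centre, had a promoter summit of 2.97 at 248 bp. Lower motif summits were at RPS25B (2.92), RPS29B (2.76), RPL41B (2.60), the divergent promoter of RPL13B and RPS16A (2.56), RPL15A (2.50), the start of RPS22B (2.44, given above), RPL31B (2.36), RPL6B (2.14) and RPL26A (2.04). Among all 29 pairs of neighbours in the order of promoter summits, 24 had overlapping intervals, and no step between neighbours below RPS28A exceeded counting error.

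Several of these assignments were shared with other genes. The RP start codon was the nearest downstream start for 21 of the 30 promoter summits, and another gene's start was nearer for 9. Those 9 included RPS4A, RPP1B, RPS28A, RPS29B (TSR1, 257 bp) and RPL6B (VMA6, 147 bp). The RPL31B summit at 526 bp lay inside the small ORF YLR406C-A, and the RPL26A summit at 642 bp lay inside the tRNA gene TRR4. Nothing in the list says which of the flanking genes a summit serves.

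The promoter summits without an Abf1 motif were close to Rap1 letters. These letters, on either strand, lay within 50 bp of 9 of the 10 RP promoter summits without a motif (90%), at a median of 9 bp. Among promoter summits without a motif of any gene the share was 9.85%, and among those of genes other than RP genes it was 5.70% (11 of 193). Of positions every 1000 bp along the genome, 0.688% had the letters within 50 bp. RP promoters hold these letters more often than other promoters, as given below. The share at other positions within RP promoters was not computed. The distance to these letters was examined after the values had been seen, and the comparison is a description without a test.

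The members of this group had low fold enrichments. RPL35B had 3.25 (2.97 to 3.56) at 205 bp upstream, with the Rap1 letters 30 bp from the summit. RPL7A had 2.73 (2.46 to 3.02) with the letters 6 bp away, and the downstream RPP1B summit at 261 bp had 2.66 (2.40 to 2.95) with the letters 9 bp away. RPS17B had 2.56 (2.30 to 2.84), with the letters 1 bp from the summit. These 4 encode proteins of the large subunit, the stalk and, for RPS17B, the small subunit.

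RPL42B (2.50), the shared promoter of RPL13A and RPS16B (2.48), RPS23B (2.14), RPL12B (2.12) and RPS0A (2.03) made up the rest, with the letters 3 to 28 bp from the summit. The one summit with neither motif nor Rap1 letters was the RPL26A summit of 2.88 (2.60 to 3.18) in the tRNA gene. All 9 summits at Rap1 letters had intervals that reached 3.56 at most.

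Rap1 letters also lay near some summits that did have an Abf1 motif. They were within 50 bp of 4 of these 20 RP summits (20%), against 2% of promoter summits with a motif of any gene. The 4 were RPS2 (3.35), RPL41B (2.60), the divergent RPL13B and RPS16A promoter (2.56) and RPL26A at 280 bp (2.04). In all 4 the Rap1 letters were nearer to the summit than the Abf1 motif, at 27 against 68 bp for RPS2, 16 against 52 bp for RPL41B, 21 against 57 bp for RPL13B and RPS16A, and 14 against 22 bp for RPL26A. With these included, 13 RP promoter summits lay at Rap1 letters with a fold enrichment between 2.03 and 3.35. The 16 RP promoter summits with a motif and no Rap1 letters within 50 bp had a median of 3.30 and reached 56.4.

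**Figure D2:**
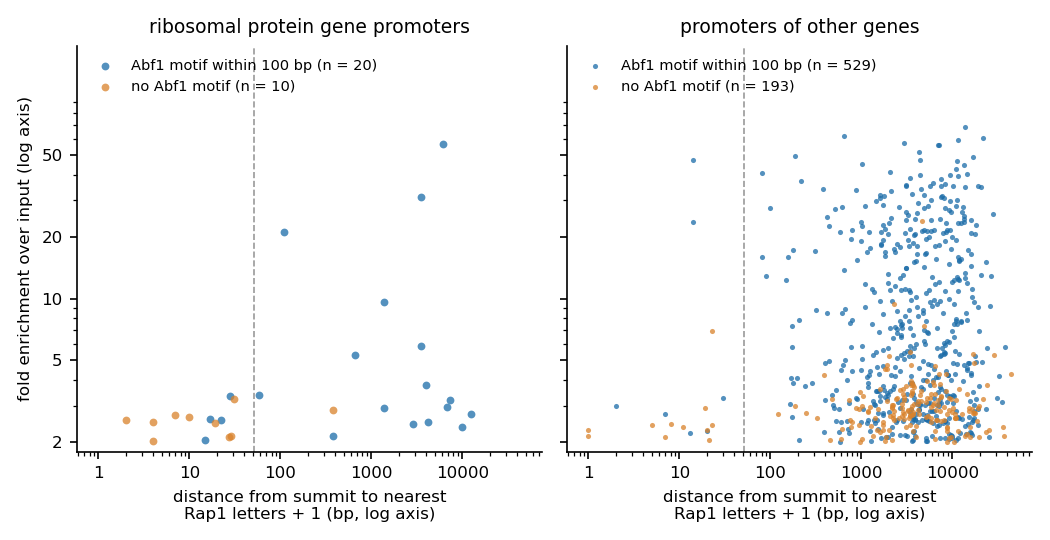
Fold enrichment over input (log axis) against the distance from the summit to the nearest Rap1 letters (bp plus 1, log axis), for promoter summits of RP genes (left, n = 30) and of other genes (right). Blue points have an Abf1 motif within 100 bp, orange points have none, and the dashed line marks 50 bp. On the left, 9 of the 10 orange points lie to the left of the line, with fold enrichments from 2.03 to 3.25, and the 6 summits of at least 4 lie to its right.

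Most RP genes with Rap1 letters upstream had no promoter summit in the list. In the 500 bp upstream of the start codon, 54 of 137 RP genes (39.4%) held the letters ACCCNNACA on either strand, against 5.48% of all protein-coding genes. Of these 54 genes, 18 had a promoter summit and 36 did not, where 17.8% of all protein-coding genes had one. Any summit up to 1000 bp upstream counted, whether or not it lay at the letters. At RPL43B and RPL6B, for example, the letters were 108 and 379 bp from the summit. The letters were present at 18 of 29 RP genes with a promoter summit (62.1%) and at 36 of 108 without one (33.3%). Rap1 itself was not measured, so its occupancy at these letters is not known here. Only this exact pattern was searched, so a gene or summit without the letters is not shown to lack a Rap1 site.

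The letters of 2 other general regulatory factors were rare upstream of RP genes. TTACCCG, for Reb1, was found at 7 of 137 RP genes (5.11%), against 10.1% of all genes. AACCCTAA, for Tbf1, was found at 1 RP gene (RPL34B, 0.73%), against 1.45% of all genes. Neither set of letters lay within 100 bp of any RP promoter summit apart from the Tbf1 letters at RPS22B.

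An Abf1 motif upstream was not always accompanied by a summit. By the same matrix, 37 of 137 RP genes (27%) had a match in the 500 bp upstream, against 34.7% of all protein-coding genes. A summit lay within 100 bp of the best match at 13 of the 37 RP genes (35.1%), and at 30.2% of all genes with a match. The best matches without a summit scored lower, with a median of 0.86, than those with one, with a median of 0.94, on the scale from 0 to 1. The matrix was itself built from summits of this list, so the scores are not independent of having a summit. Of the 11 RP genes whose best match scored at least 0.92, 8 had a summit there (72.7%), against 67.1% of all such genes.

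The 3 high-scoring RP matches without a summit were at RPL8B, RPL4B and RPP1A, named after their values were seen. Their scores were 0.94, 0.93 and 0.92. Each has A at −8 like RPL4A, and their letters are shown for comparison with the promoters above that had a summit.
RPL8B promoter, chrXII:48789-48809, minus strand: atAcATCATactatACGatag
RPL4B promoter, chrIV:471660-471680, plus strand: aaAtATAATtatttACGaaag
RPP1A promoter, chrIV:310338-310358, minus strand: acAtATCGTgaggtACGaata

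The base at −8 is one at which G or C has been linked to efficient cross-linking of Abf1 by formaldehyde. It was G or C in the best motif of 4 of the 20 RP promoter summits with a motif (20%), against 40.8% of promoter summits with a motif of any gene. Only RPS22B and RPS4A, both with C, combined it with a fold enrichment of 4 or more. The median was 6.07 for the 4 RP summits with G or C and 3.09 for the 16 with A or T, and over promoter summits of all genes the medians were 15.7 and 3.75. RPS28B and RPL43B, with T at −8, were above the median of both classes. The paper excluded sites without G or C there, some of which gave low signals that stayed through the depletion. It considers rebinding of cytosolic Abf1 during the ChIP their likely source. Whether this holds for the RP summits with A or T was not tested, since the depletion samples were not analysed here. In the ORFs, the best match had G or C at −8 at 4 of the 5 summits with a motif. RPS23A and RPS23B, which share the same motif letters, are both among them. The share over ORF summits of any gene was not computed, so this count is not set against the promoters.

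The 21 ORF summits lay between 177 and 748 bp past the start codon, 16 in exons and 5 in introns. Their median fold enrichment was 2.35, with 2 of 21 reaching 4, whereas 35% of ORF summits of any gene did. RPS2 had the highest, 6.02 (5.63 to 6.44), at 322 bp into its uninterrupted ORF and 11 bp from a motif. This ORF summit was higher than the promoter summit of the same gene (3.35), and the intervals did not overlap. RPS23A, which encodes a protein of the decoding centre, had 4.33 (4.01 to 4.67) at 591 bp and a pair of motif matches.

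The other ORF summits were below 4. RPS26A, a protein of the mRNA exit channel, had 3.35 (3.05 to 3.67) without a motif. RPL3 had 2.97 (2.71 to 3.26) without a motif, next to its promoter summit of the same height. RPS23B had 2.48 (2.25 to 2.72) with the same 21 motif letters as RPS23A. RPL31B (2.14) and RPS13 (2.02) had motifs scoring 0.86 and 0.85, near the threshold. None of the 21 had Rap1 letters within 100 bp.

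The 16 ORF summits without a motif had fold enrichments from 2.01 to 3.35. RPL8A (2.48), RPS31 (2.42), which encodes a ubiquitin fusion, RPL10 (2.38), RPP2B (2.27), RPS14B (2.26) and RPS15 (2.19) were among those with 1. RPL28, RPL9B and RPS9A had 2 each, from 2.02 to 2.36. RPS13 had 1 without a motif (2.01) beside the one with a motif. Among the 20 pairs of neighbours in this order, 18 had overlapping intervals. Only the steps below RPS2 and below RPS23A exceeded counting error of the IP count.

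**Figure D3:**
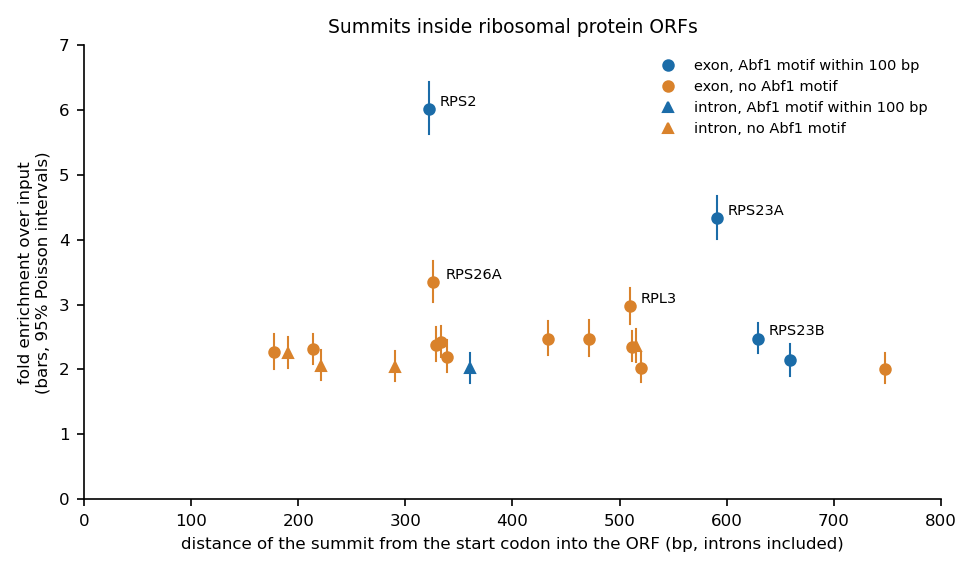
Fold enrichment over input (linear axis) of the 21 summits inside RP ORFs against their distance from the start codon in bp, with 95% Poisson intervals as bars. Blue marks summits with an Abf1 motif within 100 bp, orange those without, circles exons and triangles introns. RPS2 at 6.02 and RPS23A at 4.33 stand apart, and the other 19 lie below 4.

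ORF summits were more frequent among single-copy RP genes. They were present at 8 of 19 single-copy genes (42.1%) and at 9 of 118 genes of paralog pairs (7.63%). Of all protein-coding genes, 2.07% had one. Only uniquely mapping reads had been kept, and duplicated ORFs share sequence. All 50-base stretches of the single-copy ORFs occurred once in the genome, and at the median paralog ORF 96.7% did. Among the 86 paralog genes with at least 90% unique stretches, 8 (9.30%) had an ORF summit. How far the loss of reads without a unique position accounts for the difference was not tested. Promoter summits were present at 3 of 19 single-copy genes (15.8%) and 26 of 118 paralog genes (22%), both near the 17.8% of all protein-coding genes.

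Of the 118 genes in paralog pairs, 26 (22%) had a promoter summit, and where a pair had one it was mostly at a single copy. Of 59 pairs, 3 had a promoter summit at both copies (RPS28, RPL13 and RPS16), 20 at 1 copy and 36 at neither. Among the 20, it was the A copy in 7 pairs and the B copy in 13. With 22% of copies carrying a summit, pairs with both would be few without any tie between copies. Such a tie was not tested. RPS28B was 14.8-fold above RPS28A, although both had a motif at a like distance from the start codon (175 and 158 bp). The 2 motifs were not the same, with scores of 0.98 for RPS28B and 0.94 for RPS28A. RPL13 and RPS16 form a pair of duplicated divergent promoters, RPL13A with RPS16B (2.48) and RPL13B with RPS16A (2.56), and their intervals overlapped. RPL13A, the anchor gene of this strain, thus had a low promoter summit without an Abf1 motif.

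The promoters of RPS28B and RPS28A are printed in full for this contrast, as the 250 bases before the start codon on the coding strand, with the positions from −6 to +6 of the Abf1 motif in capitals. Neither holds Rap1, Reb1 or Tbf1 letters.
RPS28B, chrXII:672881-673130: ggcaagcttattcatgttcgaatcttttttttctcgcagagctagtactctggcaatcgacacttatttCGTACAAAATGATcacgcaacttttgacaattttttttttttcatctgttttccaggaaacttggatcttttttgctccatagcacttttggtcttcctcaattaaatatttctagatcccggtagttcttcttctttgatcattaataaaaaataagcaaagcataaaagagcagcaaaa
RPS28A, chrXV:649008-649257: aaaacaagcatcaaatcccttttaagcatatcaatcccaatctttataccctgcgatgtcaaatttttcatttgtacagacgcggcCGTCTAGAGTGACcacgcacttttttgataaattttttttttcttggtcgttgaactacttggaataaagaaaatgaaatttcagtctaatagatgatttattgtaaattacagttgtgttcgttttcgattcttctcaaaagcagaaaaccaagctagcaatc

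For the other high promoter summits the second copy had none in the list. RPS22A, RPL43A, RPS4B, RPL4B and RPP1A lacked a promoter summit. In the 500 bp upstream, the best matches of RPS22A, RPL43A and RPS4B scored 0.78, 0.81 and 0.80, under the threshold of 0.85. RPL4B and RPP1A had matches above that threshold, as given above. The motifs at the summits of RPS22B, RPS4A and RPP1B lay beyond this window, at 731, 664 and 916 bp upstream. Within it, RPS22B and RPS4A scored 0.86 and 0.85. For these pairs the scores therefore do not compare the sites at the summits between copies. In the ORFs, RPS23 was the only pair with a summit at both copies, RPS23A being 1.75-fold above RPS23B with intervals that did not overlap. RPS26B, RPL8B and RPL9A had no ORF summit, unlike their copies RPS26A, RPL8A and RPL9B.

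**Figure D4:**
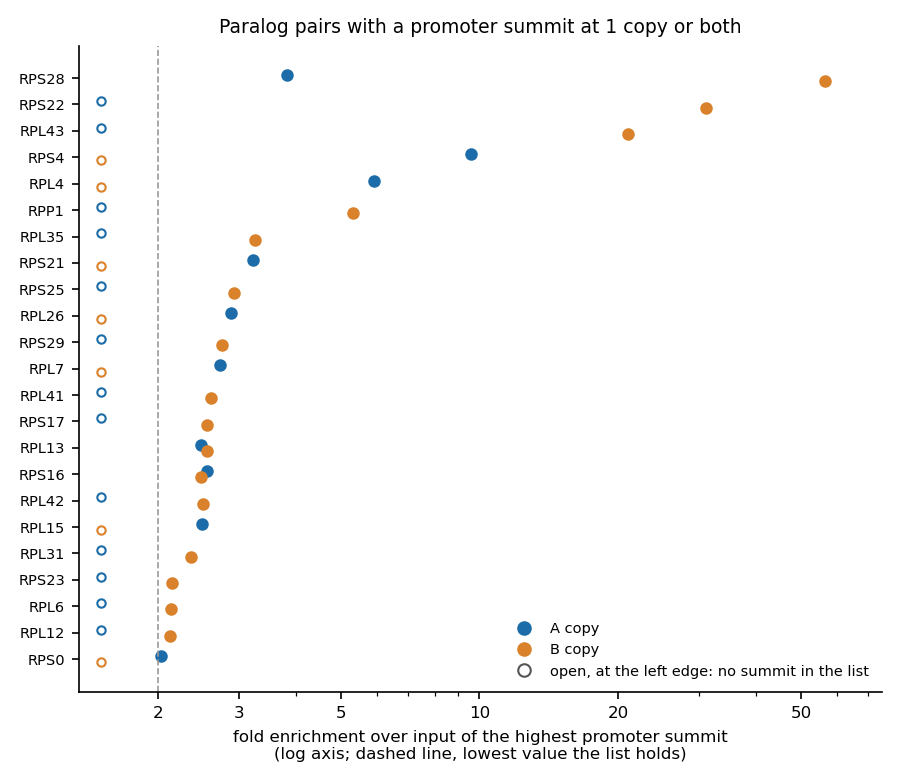
Fold enrichment over input (log axis) of the highest promoter summit for the A copy (blue) and the B copy (orange) of the 23 RP paralog pairs with a promoter summit. Open symbols left of the dashed line stand for copies without a summit in the list, which have no value. Only RPS28, RPL13 and RPS16 have both copies to the right of the line, with RPS28B at 56.4 and RPS28A at 3.81.

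Genes of both subunits carried summits. Promoter summits were found at 14 of 76 large subunit genes (18.4%), 14 of 56 small subunit genes (25%) and 1 of 5 stalk genes (20%), beside 17.8% of all protein-coding genes. ORF summits were found at 6 large subunit genes (7.89%), 10 small subunit genes (17.9%) and 1 stalk gene, beside 2.07% of all protein-coding genes. Of the 89 RP genes with an intron, 18 had a promoter summit and 7 an ORF summit, and of the 48 without an intron, 11 and 10.

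Genes that regulate RP transcription had promoter summits in 3 of 11 cases, beside 17.8% of all protein-coding genes, so this small count does not set them apart. SFP1, an activator of RP genes, had 18.4 at 746 bp upstream, and FHL1, the forkhead factor of RP promoters, had 14.1 at 401 bp, both with a motif. REB1 had 3.02. RAP1, IFH1, HMO1, CRF1, ABF1, TBF1, TOR1 and SCH9 had no summit. Of 10 dedicated chaperones of ribosomal proteins, 3 had a promoter summit. BCP1, the chaperone of Rpl23, had 18.1 at 173 bp with a motif, and TSR4 (2.81) and YAR1 (2.77) had none. No gene of either list had an ORF summit, which 2.07% of all genes had.

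Other gene sets gave higher promoter values. Of 66 mitochondrial ribosomal protein genes, 18 (27.3%) had a promoter summit, and their 17 summits had a median of 4.97, against a median of 2.74 for the cytosolic RP genes. No mitochondrial ribosomal protein gene had an ORF summit. Of 21 glycolysis and fermentation genes, 6 (28.6%) had a promoter summit, with a median of 23.8, all with a motif. ORF summits occurred at 20.5 per 100 kb of ORF in cytosolic RP genes and 39.3 in glycolysis and fermentation genes. In all protein-coding genes outside the cytosolic RP genes there were 1.39 per 100 kb. RP ORFs are short, at a median of 771 bp against 1200 bp for all protein-coding genes. How transcription relates to the ORF summits was not tested.

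**Figure D5:**
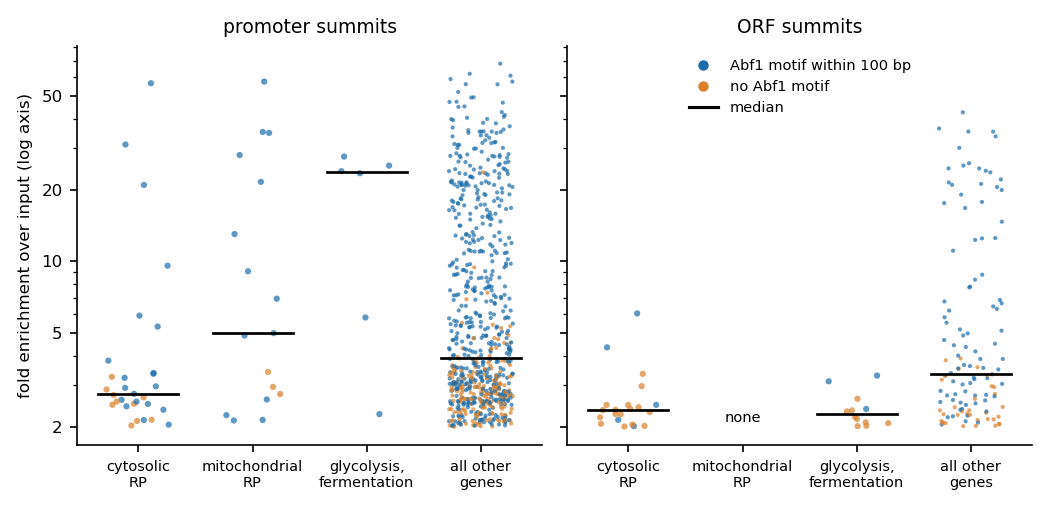
Fold enrichment over input (log axis) of promoter summits (left) and ORF summits (right) for cytosolic RP genes, mitochondrial RP genes, glycolysis and fermentation genes, and all protein-coding genes that are not cytosolic RP genes. Each point is a summit, blue with and orange without an Abf1 motif within 100 bp, and black lines are medians. The cytosolic RP promoter median is 2.74 and the mitochondrial one 4.97, and mitochondrial RP genes have no ORF summit.

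The distance limit decided a few assignments. Just inside it were RPP1B at 936 bp (5.30) and RPS25B at 861 bp (2.92). Beyond it and up to 1500 bp upstream, 7 further pairs of an RP gene and a summit were left out, the nearest at RPP2A (1059 bp, 2.19) and RPL31B (1141 bp, 3.35) and the highest at RPL33B (1361 bp, 15.4, with a motif). At the lower end of the list, the lowest RP ORF summit was at RPS13 (2.01) and the lowest RP promoter summit at RPS0A (2.03).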

How the data were processed

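The authors mapped the read pairs with HISAT2 2.0.5 (assembly sacCer3), discarded fragments that repeated a combination of molecular identifiers and reads without a unique position, and ran MACS2 2.1.1.20160309 on the 3 t = 0 Abf1 IP samples together against their inputs (q at most 0.001, fold enrichment at least 2). The deposited values are the fold enrichment over input at each summit, the −log10 p and q values and the summit offset. Sequencing depth per sample is not given in the processed data used here.

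Summits were placed on the reference R64, the same assembly as sacCer3. All 948 summits lay within its chromosome lengths. Genes, ORFs and introns were those of its RefSeq annotation. The fragment count behind each value was recovered by solving the caller's Poisson formula for the pair of −log10 p and fold values, and came out whole within 0.01 for 941 summits (50 of the 51 at RP genes). The Abf1 matrix was built from 403 sequences at summits enriched 4-fold or more, with a pseudocount of 0.8, so it was not independent of these summits. Scripts ran in Python 3.11.15 with numpy 2.4.6, pandas 2.3.3 and scipy 1.17.1 and were tested on simulated data. No test between groups was possible with 1 pooled list, and all comparisons are descriptions.

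Genes were named by rule: every RP gene with a motif at a promoter summit, the 5 highest promoter summits without one, the 5 highest ORF summits, every ORF summit with a motif, the paralogs of these, and RPL13A. Others are named where a count or list is given in full. The named values of 1 member are not reported here, though it stays in the counts. The members, gene lists and rules were chosen with earlier results of these data known. The alternatives tried are given in the closing section.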

Additional observations from a re-analysis of the deposited data

How the results depend on the processing

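Of 61 combinations of a result and an alternative, 46 stayed within 1.5 times the count or within the 95% interval of the median, and 15 did not. Requiring a fold enrichment of at least 4 left 6 RP genes with a promoter summit, 2 with an ORF summit, 6 promoter and 2 ORF summits with a motif, and medians of 15.3 for promoter summits with a motif and 5.18 for ORF summits. No promoter summit without a motif was left under it. Counting any overlap of the peak interval gave 37 RP genes with an ORF summit, 31 ORF summits with a motif and an ORF median of 2.50. Assigning promoter summits to the nearest start codon only gave 19 RP genes and 13 promoter summits with a motif. A limit of 500 bp gave 12 promoter summits with a motif. ORF summits with a motif numbered 12 at a threshold of 80%, 3 at 90% and 3 with the exact consensus. With the matrix rebuilt from 395 sequences without RP peaks, the counts stayed at 20 and 5. Narrowing the window for Rap1 letters to 25 bp, an alternative chosen after seeing the data, gave 6 of the 10 promoter summits without a motif, and widening it to 100 bp gave 9. No paired analysis was possible because the list pools the replicates, and for the same reason no replicate could be left out. Depth limits the ranking among summits of similar height, and values below the list's minimum of 2 are not known.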
